A study of Saccharomyces cerevisiae with 50 samples.

Results

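The comparison concerns a wild-type budding yeast strain that carries a plasmid and whose galactose genes were on, wt(ura3), set against a wild type without a plasmid, wt(met). It uses 6 of the 50 libraries of the series: the 3 mRNA libraries of wt(ura3), which stood as the wild type beside a strain expressing GST-tagged Gcn4 from a galactose promoter, and the 3 of wt(met), which stood beside a strain expressing Gcn4 from the ADH1 promoter. Libraries were chosen by their labels and genes by their presence in both count tables, which gave 5731 shared genes, of which 5563 had enough reads to be tested. The series as a whole profiled mRNA, and for some strains ribosome footprints, of ribosomal protein deletion strains of long and short replicative lifespan and of strains that overexpress Gcn4. All strains are haploid BY4741 derivatives of mating type a. The wt(ura3) strain is MATa his3Δ1 leu2Δ0 met15Δ0 ura3Δ0 with the high-copy plasmid pRS426, which carries URA3. The wt(met) strain is MATa his3Δ1 leu2Δ0 ura3Δ0 with a functional MET15 and no plasmid. A further wild type, called wt, is the parent of the deletion strains, MATa his3Δ1 leu2Δ0 met15Δ0 ura3Δ0 with no plasmid, and its 3 mRNA libraries are given beside some results because it shares the met15 deletion with wt(ura3). The labels and methods give rich glucose medium (YPD, of yeast extract, peptone and glucose) as the default for all strains, and name no other medium for wt(ura3) in the sources used here. Growth on galactose is read only from the galactose genes below. Carbon source as read from these genes, the rest of the medium, the plasmid, uracil and methionine auxotrophy, and the run with its count table all changed together between wt(ura3) and wt(met), so their parts in any difference cannot be told apart.

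As background, yeast represses genes for other sugars while glucose is present. Glucose holds the repressor Mig1 in the nucleus, whereas the kinase Snf1 inactivates Mig1 when glucose is scarce. Galactose is taken up by Gal2, converted to glucose phosphate by the Leloir enzymes Gal1, Gal7 and Gal10, and sensed by Gal3, which relieves the activator Gal4 of its inhibitor Gal80. Cells on galactose ferment less and respire more than cells on glucose, and genes of the respiratory chain, the citric acid cycle and the use of ethanol and acetate are known to be under glucose repression.

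Levels are given as counts per 1000000 reads (CPM), adjusted between libraries by trimmed mean of M-values (TMM). Each is relative to its scaled library, so less mRNA of a gene per cell cannot be told apart from more of the rest. After this scaling, all genes tested summed to 782200 to 879200 CPM in wt(ura3) and 1198000 to 1254000 CPM in wt(met). Summed levels of groups of genes below are therefore not shares of the mRNA of a library. Log2 fold changes are wt(ura3) over wt(met), with a standard error (SE) from the fit, and a gene was called when its Benjamini-Hochberg adjusted p in the edgeR quasi-likelihood test was below 0.01 and its fold change was over 2. There were 3 libraries in each group.

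The wt(ura3) libraries held 11600901 to 13693442 reads in genes and the wt(met) libraries 19312026 to 25642672. The wt(ura3) libraries were more unlike each other, with a Pearson r of log2(CPM + 1) across genes of 0.955 to 0.973, against 0.993 to 0.997 among wt(met) libraries, and the median SD of log2 CPM per gene was 0.233 in wt(ura3) and 0.103 in wt(met). URA3 had 215318, 125392 and 133251 reads in wt(ura3) and MET17, the gene deleted in met15Δ0, had 1224, 1376 and 1355 reads in wt(met). Each of these rows stands in the table of its own group only, so neither gene was tested. The receptor gene of a cells, STE2 (YFL026W), was at 274, 386 and 287 CPM in wt(ura3), against 324, 332 and 309.6 in wt(met). Of 6 a-cell genes tested, 0 were called higher and 1 lower (16.7% called against 27.3% of all genes). The 1 called was MFA2 (YNL145W), with a log2 fold change of -1.51. Those of ASG7, BAR1, MFA1, STE2 and STE6 were 0.945, 0.53, 0.26, -0.027 and -0.44. Of the α-cell genes, the pheromone gene MF(ALPHA)1 did not exceed 2.00 CPM in any of the 6 libraries, while the receptor gene STE3 (YKL178C) was at 19.9, 13.6 and 22 CPM in wt(ura3), against 5.95, 5.77 and 6.07 in wt(met) (log2 fold change 1.64 ± 0.21, adjusted p = 0.00022). STE3 was the 1 gene called among 3 α-cell genes tested (33.3%), and 0 were called lower. Log2 fold changes of the 3 ran from -0.050 to 1.715. Short genes lay higher and long genes lower in wt(ura3), with a median log2 fold change of 0.42 in the 1391 genes with the shortest coding sequences and -0.33 in the 1390 with the longest.

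A stretch of chromosome III differed in a way that touches some genes named below. The 37 tested genes from YCL025C to the left end of the chromosome had a median log2 fold change of -0.94 in wt(ura3) against wt(met), with 0 called higher and 18 called lower. In wt(met) against wt, all 37 had a positive log2 fold change and their median was 1.06, whereas the medians of the other 31 chromosome arms ran from -0.088 to 0.10. The medians of these 37 genes in single libraries, taken relative to the wt mean, were 0.931 to 1.02 in wt(met), -0.0367 to 0.24 in wt(ura3) and 0.0553 to 0.195 in the PADH1-GCN4 strain that shares the wt(met) table. The higher level was thus found in the wt(met) libraries. Copy number of the stretch was not measured, and the boundary was chosen after the values were seen. Of the genes named below, KRR1, SPB1, APA1, GLK1, SRO9, HIS4 and RNQ1 lie in this stretch.

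**Figure D1:**
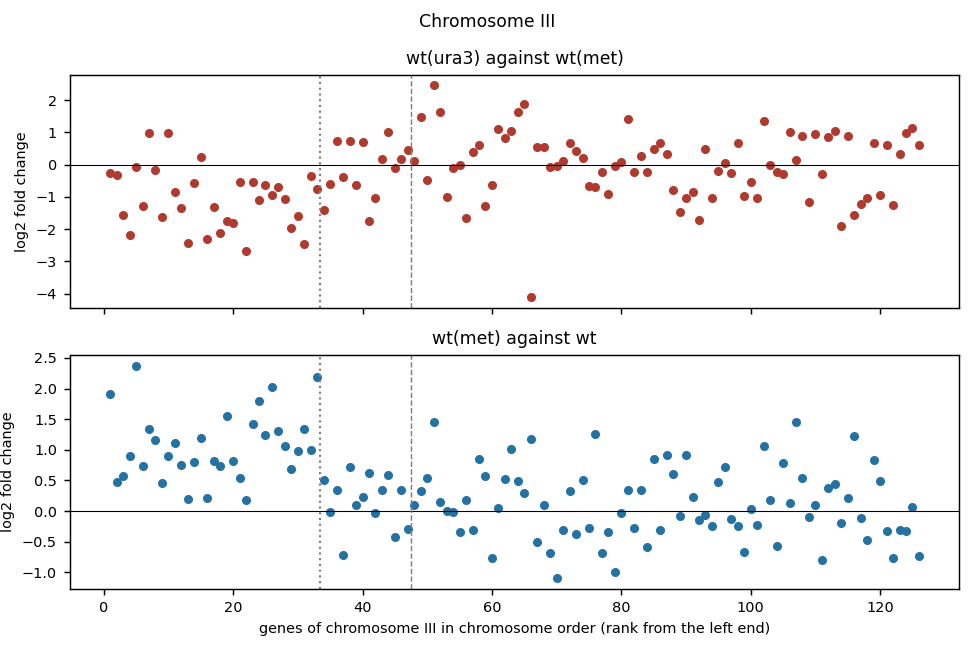
Log2 fold change (y axes) of the genes of chromosome III whose average log2 CPM was 4 or more, in chromosome order from the left end (x axis), in wt(ura3) against wt(met) (top) and wt(met) against wt (bottom). The dotted line marks YCL025C and the dashed line the end of the left arm. Left of the dotted line the points lie mostly below 0 in the top panel and all above 0 in the bottom panel.

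The 4 structural galactose genes had the 4 largest log2 fold changes of all genes tested. They are induced through Gal4, and their promoters hold the Gal4 motif, CGG and CCG with 11 bases between them, searched on both strands in the 500 bases before each start codon. The motif occurred in 2.98% of 6000 such windows, in the windows of all 4 structural genes and all 3 regulators, and in 4 of 6 other Gal4 targets. The sites below are shown because they belong to the genes that carry the result. They are RefSeq sequence of assembly R64 (sacCer3), 5′ to 3′ on the strand of the gene, with the motif in capitals and 5 flanking bases on each side, and a match is a description of the sequence only.
GAL7, chrII:275698-275724, minus strand, 192 bases before the start codon: gcgctCGGACAACTGTTGACCGtgatc
GAL1, chrII:278563-278589, plus strand, 453 bases before the start codon: aagtaCGGATTAGAAGCCGCCGagcgg
GAL1, chrII:278582-278608, plus strand, 434 bases before the start codon: ccgagCGGGCGACAGCCCTCCGacgga
GAL1, chrII:278600-278626, plus strand, 416 bases before the start codon: tccgaCGGAAGACTCTCCTCCGtgcgt
GAL2, chrXII:289791-289817, plus strand, 416 bases before the start codon: ggcacCGGCGGTCTTTCGTCCGtgcgg
GAL3, chrIV:463141-463167, plus strand, 288 bases before the start codon: acgttCGGTCCACTGTGTGCCGaacat
GAL80, chrXIII:171417-171443, plus strand, 172 bases before the start codon: tttacCGGCGCACTCTCGCCCGaacga
GCY1, chrXV:550740-550766, plus strand, 369 bases before the start codon: acaatCGGGGCAGACTATTCCGgggaa
MTH1, chrIV:1016150-1016176, minus strand, 469 bases before the start codon: aggtcCGGGGAAATGGAGTCCGtgcga

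The galactokinase gene GAL1 (YBR020W) was at 5122, 4411 and 7103 CPM in wt(ura3), against 3.95, 2.98 and 4.56 in wt(met), a 1450-fold difference (log2 fold change 10.50 ± 0.32, adjusted p = 6.7e-08 by edgeR). Its 3 sites above are shared with the divergent gene GAL10 (YBR019C), which encodes the epimerase and was at 3479, 3045 and 4484 CPM in wt(ura3), against 1.44, 1.22 and 2.06 in wt(met) (log2 fold change 11.18 ± 0.31, adjusted p = 6.7e-08). Both were thus expressed in each wt(ura3) library at a level that no wt(met) library approached. The uridylyltransferase gene GAL7 (YBR018C), with its single site, was at 1604, 1292 and 2079 CPM in wt(ura3), against 1.63, 1.76 and 1.45 in wt(met) (log2 fold change 10.00 ± 0.28, adjusted p = 6.7e-08). The window of the galactose permease gene GAL2 (YLR081W) held 4 matches, and the gene was at 996, 1170.1 and 1599 CPM in wt(ura3), against 1, 0.587 and 0.891 in wt(met) (log2 fold change 10.58 ± 0.32, adjusted p = 6.7e-08). Summed over the 4 structural genes, the level was 9918 to 15270.0 CPM in wt(ura3) and 6.55 to 8.96 CPM in wt(met). In each of them wt(ura3) replicate 3 was the highest library. Against wt their log2 fold changes were 10.27 (GAL1), 11.76 (GAL10), 9.50 (GAL7) and 10.91 (GAL2), a comparison that uses the same wt(ura3) libraries.

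Of the 3 regulators, 2 rose. GAL3 (YDR009W), the galactose sensor, was at 179.9, 191 and 289 CPM in wt(ura3), against 5.51, 6.31 and 5.68 in wt(met) (log2 fold change 5.23 ± 0.23, adjusted p = 9.7e-07). GAL80 (YML051W), the inhibitor of Gal4, was at 151, 137 and 135 CPM in wt(ura3), against 59.2, 59.5 and 60.8 in wt(met) (log2 fold change 1.23 ± 0.12, adjusted p = 6.5e-05). The activator gene GAL4 (YPL248C) itself was at 12.8, 24.7 and 18.5 CPM in wt(ura3), against 11.7, 12.2 and 8.13 in wt(met), with groups that did not overlap but a difference that missed the threshold (log2 fold change 0.80 ± 0.26, adjusted p = 0.023), although it was called higher without wt(ura3) replicate 1 (1.01 on the log2 scale, adjusted p = 0.0062) and with each gene's coding length as an offset (1.12, adjusted p = 0.0037). So the sensor differed 37.6-fold, its partner 2.35-fold and the activator was not called, although each of the 3 windows held 1 match to the motif.

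Of 6 other genes known as Gal4 targets, 4 rose. GCY1 (YOR120W), a glycerol dehydrogenase with a Gal4 site, was at 934, 457 and 1278 CPM in wt(ura3), against 40.2, 37 and 36.5 in wt(met) (log2 fold change 4.55 ± 0.35, adjusted p = 2.9e-05). MTH1 (YDR277C), a repressor of hexose transporter genes that acts when glucose is absent, was at 72.7, 193 and 179.5 CPM in wt(ura3), against 29.8, 35 and 23.8 in wt(met) (log2 fold change 2.33 ± 0.33, adjusted p = 0.00034), with wt(ura3) replicate 1 the lowest of its group. PCL10 (YGL134W), a cyclin of the kinase Pho85, and FUR4 (YBR021W), the uracil permease gene next to GAL1, rose with log2 fold changes of 1.97 ± 0.21 and 1.66 ± 0.24. FUR4 had no match in its window. The aminopeptidase gene LAP3 (YNL239W) had 1 match and was at 148, 199 and 156 CPM in wt(ura3), against 147, 145 and 146 in wt(met), and was not called. Phosphoglucomutase 2, PGM2 (YMR105C), which leads from galactose into glycolysis, was at 109, 136 and 136 CPM in wt(ura3), against 179.9, 187 and 131 in wt(met) and was not called (log2 fold change -0.39 ± 0.17, adjusted p = 0.073), but against wt, at 46.1, 52.6 and 34.3 CPM, its log2 fold change was 1.54 and called. The wt(met) libraries were themselves called higher than wt for PGM2 (log2 fold change 1.94), so the result for PGM2 depends on which wild type is taken.

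**Figure D2:**
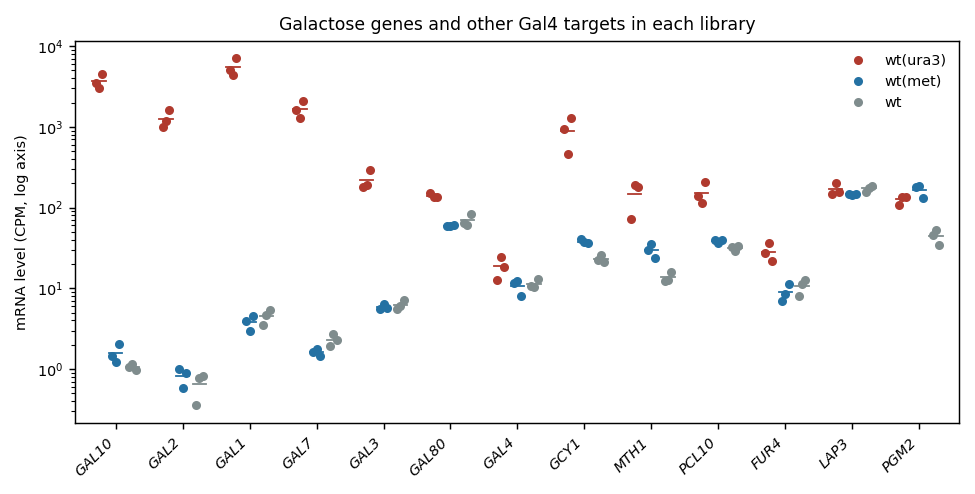
mRNA level in CPM (y axis, log scale) of galactose genes and other Gal4 targets (x axis) in the 3 libraries each of wt(ura3), wt(met) and wt. Points are libraries and bars are group means. GAL2, the lowest of the 4 structural genes, lies at 996 CPM or above in wt(ura3) and at 1.00 CPM or below in wt(met), while LAP3 and PGM2 lie within or near the range of the other strains.

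Beyond the galactose genes the comparison was broad. Of the 5563 genes tested, 1518 were called, which is 27.3% of them, with 860 higher (15.5%) and 658 lower (11.8%) in wt(ura3). The median log2 fold change of all genes tested was 0.029. The CPM of the groups did not overlap for 72.3% of the genes. Counts of list members below are to be read against these shares, and the lists are groups of genes with a common known function. When wt(ura3) was set against wt in place of wt(met), 38.8% of 5557 genes were called, and wt(met) set against wt gave 3.64%, with 3.08% higher and 0.558% lower in wt(met).

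**Figure D3:**
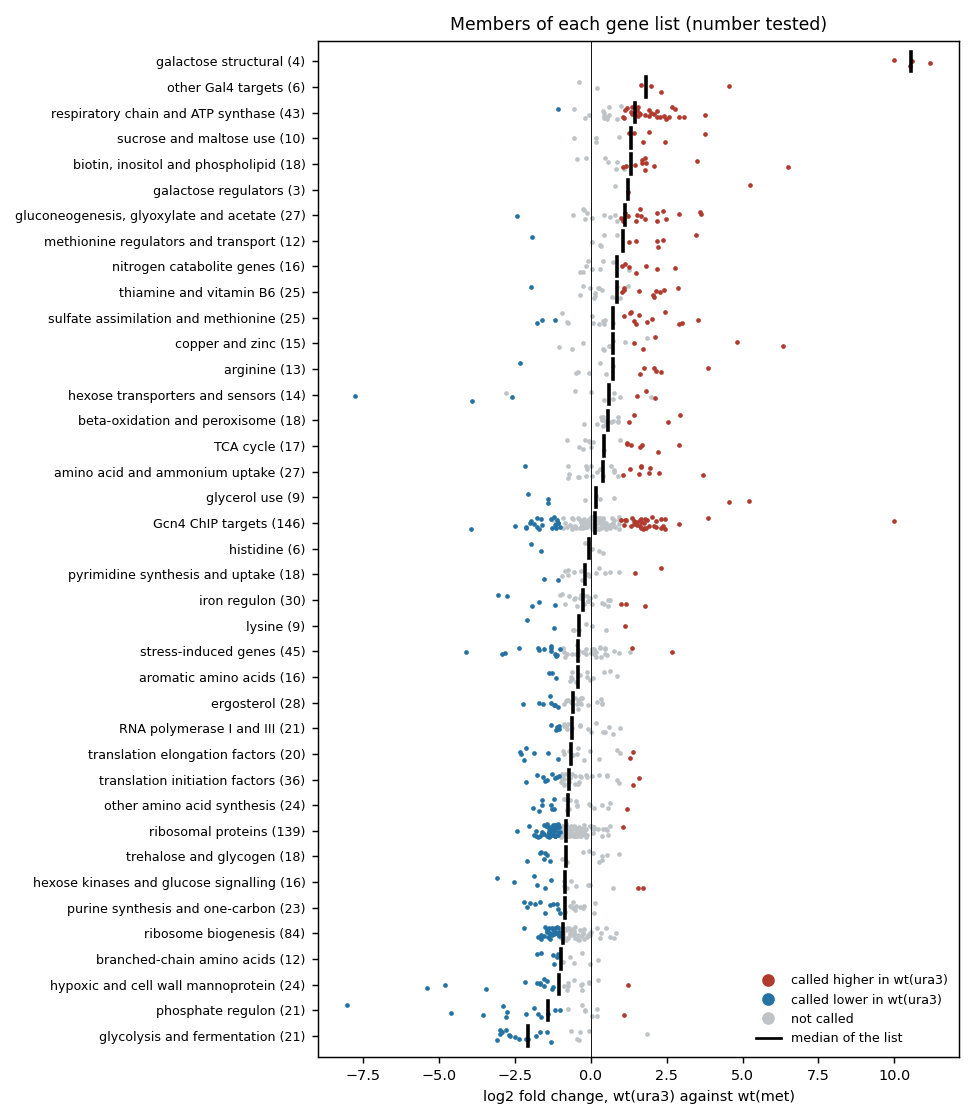
Log2 fold change in wt(ura3) against wt(met) (x axis) of the members of 39 gene lists (rows, with the number of genes tested), ordered by list median. Points are genes, coloured where called, and black bars are medians, which run from 10.54 for the 4 structural galactose genes to -2.06 for glycolysis and fermentation.

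Hexose transporters that work in glucose-grown cells fell strongly. HXT1 (YHR094C), the low-affinity transporter induced by abundant glucose, was at 0.356, 0.409 and 0.207 CPM in wt(ura3), against 77.7, 63 and 73.2 in wt(met) (log2 fold change -7.74 ± 0.24, adjusted p = 6.7e-08). HXT3 (YDR345C), also of low affinity, was at 16.2, 13.7 and 31.3 CPM in wt(ura3), against 333, 256 and 332 in wt(met) (log2 fold change -3.91 ± 0.31, adjusted p = 3.1e-05). The intermediate-affinity transporter HXT4 (YHR092C) fell as well (log2 fold change -2.59 ± 0.25, adjusted p = 5.6e-05). In all 3 genes every wt(ura3) library lay below every wt(met) library. HXT2 (YMR011W) and HXT7 (YDR342C), transporters of higher affinity, were uneven among wt(ura3) libraries, at 4.27, 81.1 and 4.22 CPM and 7.95, 126 and 37.4 CPM, with replicate 2 the highest in both, against 231, 158 and 226 CPM and 17.4, 13.5 and 12 CPM in wt(met), and neither was called (adjusted p = 0.028 and 0.037 by edgeR). Without wt(ura3) replicate 2 HXT2 was called lower (log2 fold change -5.59, adjusted p = 9.1e-06), and without wt(ura3) replicate 1 HXT7 was called higher (log2 fold change 2.51, adjusted p = 0.0015). Of the 14 tested transporters and sensors, 3 rose and 3 fell, and without wt(ura3) replicate 1, 5 rose and 3 fell. Those that rose, HXT8 (YJL214W), HXT5 (YHR096C) and HXT10 (YFL011W), were at low level, HXT8 at 4.45, 3.68 and 6.43 CPM in wt(ura3), against 0.94, 1.71 and 0.612 in wt(met). The calls of HXT5 and HXT10 were lost when any 1 wt(met) library was left out, with adjusted p from 0.012 to 0.023.

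Of 16 genes of hexose kinases and glucose signalling, 2 rose and 6 fell. MIG2 (YGL209W), a repressor induced by glucose, was at 6.58, 4.36 and 3.25 CPM in wt(ura3), against 43.4, 42.5 and 36.3 in wt(met) (log2 fold change -3.10 ± 0.25, adjusted p = 3.3e-05), and its relative MIG3 (YER028C) fell too (log2 fold change -1.49 ± 0.23). STD1 (YOR047C), a paralog of MTH1, was at 13.3, 14.6 and 7.67 CPM in wt(ura3), against 67.4, 68.1 and 70.3 in wt(met) (log2 fold change -2.53 ± 0.22, adjusted p = 4.2e-05), so the paralogs moved in opposite directions. TYE7 (YOR344C), an activator of glycolytic genes, fell (log2 fold change -1.86 ± 0.26, adjusted p = 0.00029). Of the kinases that phosphorylate glucose, HXK2 (YGL253W) was at 215, 621 and 447 CPM in wt(ura3), against 1081, 1018 and 1032 in wt(met) and fell by 1.29 on the log2 scale, a call lost without wt(ura3) replicate 1 or 3 or any wt(met) library (adjusted p 0.003 to 0.018, the lowest at a fold change under 2). GLK1 (YCL040W) was at 99.5, 183 and 139.5 CPM in wt(ura3), against 514, 570.0 and 340.3 in wt(met) (log2 fold change -1.75 ± 0.26, adjusted p = 0.00038), but it lies in the chromosome III stretch and was called higher in wt(met) than in wt (log2 fold change 1.55). For wt(ura3) against wt the log2 fold change of GLK1 was -0.22. The repressors NRG1 (YDR043C) and NRG2 (YBR066C) rose, with log2 fold changes of 1.73 ± 0.32 and 1.57 ± 0.17.

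Genes for other sugars rose in part. Of 10 tested genes for sucrose and maltose use, 6 rose and 0 fell. MAL31 (YBR298C) and MAL11 (YGR289C), maltose permease genes, rose with log2 fold changes of 1.74 ± 0.24 and 1.27 ± 0.23, and MAL33 (YBR297W), a maltose activator gene, was at 44.1, 63.1 and 86.1 CPM in wt(ura3), against 18.5, 17.2 and 15.4 in wt(met) (log2 fold change 1.92 ± 0.23, adjusted p = 0.00015). The maltase genes MAL12 (YGR292W) and MAL32 (YBR299W) had the largest log2 fold changes of the list, 3.76 ± 0.39 and 2.46 ± 0.43, at no more than 4.49 CPM. The MAL genes have close copies, so reads unique to one copy are few. The invertase gene SUC2 (YIL162W), a standard glucose-repressed gene, was at 40.6, 145 and 91.7 CPM in wt(ura3), against 87.6, 76.8 and 78.8 in wt(met) and was not called (log2 fold change 0.19 ± 0.35, adjusted p = 0.66), with wt(ura3) replicate 1 below and replicates 2 and 3 above all wt(met) libraries.

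Genes for using ethanol, acetate and lactate rose more often than they fell. Of 27 genes of gluconeogenesis, the glyoxylate cycle and acetate use, 16 rose and 1 fell, and the median log2 fold change was 1.14. JEN1 (YKL217W), the lactate permease, was at 51.2, 42.7 and 117 CPM in wt(ura3), against 14, 7.44 and 6.85 in wt(met) (log2 fold change 2.90 ± 0.42, adjusted p = 0.00034). CYB2 (YML054C), lactate dehydrogenase of mitochondria, was at 50.2, 42.5 and 57.4 CPM in wt(ura3), against 10.5, 10.5 and 7.74 in wt(met) (log2 fold change 2.38 ± 0.19, adjusted p = 3.1e-05). SFC1 (YJR095W), which brings succinate into mitochondria in exchange for fumarate, and CRC1 (YOR100C), a carnitine carrier, rose with log2 fold changes of 3.65 ± 0.40 and 3.61 ± 0.34. CIT2 (YCR005C), the peroxisomal citrate synthase and a classic target of the retrograde pathway, was at 1001, 366 and 231 CPM in wt(ura3), against 101, 92.2 and 95.7 in wt(met) (log2 fold change 2.47 ± 0.46, adjusted p = 0.0013), and without wt(ura3) replicate 1, the highest library, its log2 fold change was 1.63. The gluconeogenic enzyme genes were called at low level. PCK1 (YKR097W) was at 12, 10.7 and 11.6 CPM in wt(ura3), against 5.95, 4.7 and 4.95 in wt(met) (log2 fold change 1.14 ± 0.19, adjusted p = 0.00072). FBP1 (YLR377C) was at 4.92, 3.34 and 12.2 CPM in wt(ura3), against 1.94, 0.978 and 1.56 in wt(met) (log2 fold change 2.20 ± 0.49, adjusted p = 0.0034), a call lost without wt(met) replicate 2 or 3 (adjusted p = 0.018 and 0.015). ADH2 (YMR303C), which oxidises ethanol, was at 8.07, 6.41 and 9.61 CPM in wt(ura3), against 2.94, 3.23 and 2.28 in wt(met) (log2 fold change 1.51 ± 0.24, adjusted p = 0.00059). ADR1 (YDR216W), an activator of ADH2, rose by less (log2 fold change 1.08 ± 0.22), a call lost without wt(ura3) replicate 2 (log2 fold change 0.78) or wt(met) replicate 2 or 3 (adjusted p = 0.012 and 0.014). The gene that fell was MAE1 (YKL029C), the mitochondrial malic enzyme, at 73.1, 66.4 and 51 CPM in wt(ura3), against 340.4, 376 and 297 in wt(met) (log2 fold change -2.41 ± 0.18, adjusted p = 2.5e-05).

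Of 18 genes of fatty acid oxidation and peroxisomes, 4 rose and 0 fell, and 17 had a positive log2 fold change. The share called, 22.2%, was below the 27.3% of all genes. POX1 (YGL205W), the acyl-CoA oxidase that starts the pathway, was at 5.99, 6.61 and 6.5 CPM in wt(ura3), against 0.815, 0.489 and 1.17 in wt(met) (log2 fold change 2.95 ± 0.30, adjusted p = 7.6e-05). SPS19 (YNL202W), a dienoyl-CoA reductase, was at 15.5, 11 and 31.7 CPM in wt(ura3), against 2.94, 3.52 and 3.45 in wt(met) (log2 fold change 2.55 ± 0.37, adjusted p = 0.00038). ECI1 (YLR284C), an enoyl-CoA isomerase, rose with a log2 fold change of 1.43 ± 0.17, and FAA2 (YER015W), an acyl-CoA synthetase, with 1.27 ± 0.16. With the coding length offset, 7 in place of 4 were called. Of 9 tested genes of glycerol, 2 rose, 3 fell and 4 were not called. STL1 (YDR536W), the glycerol importer, was at 23.6, 14 and 26.1 CPM in wt(ura3), against 0.564, 0.587 and 0.557 in wt(met) (log2 fold change 5.20 ± 0.32, adjusted p = 1.1e-05). The 3 that fell were GPP1 (YIL053W), a glycerol phosphatase, at 475, 368 and 164 CPM in wt(ura3), against 1422, 1365 and 1379.9 in wt(met) (log2 fold change -2.05 ± 0.33, adjusted p = 0.00055), and the dehydrogenases GPD1 (YDL022W) and GPD2 (YOL059W) (log2 fold changes -1.42 ± 0.19 and -1.42 ± 0.27), all of which act in making glycerol. The paralog of GPP1, GPP2 (YER062C), named after its value was seen, overlapped between the groups and was not called (log2 fold change 0.31 ± 0.15, adjusted p = 0.085).

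The respiratory chain rose broadly. Of 43 tested genes of the chain and the ATP synthase, 29 rose and 1 fell, 69.8% against 27.3% of all genes, with a median log2 fold change of 1.46. Their summed level was 13050.0 to 20070.0 CPM in wt(ura3) and 6710.0 to 7090.0 CPM in wt(met). CYC1 (YJR048W), the main cytochrome c, was at 517, 296 and 780.4 CPM in wt(ura3), against 37.2, 42.4 and 37.3 in wt(met) (log2 fold change 3.77 ± 0.32, adjusted p = 4e-05). QCR9 (YGR183C), a small subunit of complex III, was at 897, 446 and 913 CPM in wt(ura3), against 115, 110.4 and 100.4 in wt(met) (log2 fold change 2.79 ± 0.27, adjusted p = 5.6e-05). COX4 (YGL187C), of cytochrome c oxidase, was at 722, 445 and 855 CPM in wt(ura3), against 112, 118 and 109 in wt(met) (log2 fold change 2.58 ± 0.23, adjusted p = 4.5e-05). Replicate 2 was the lowest wt(ura3) library in these 3 genes, and still above each wt(met) library. INH1 (YDL181W), an inhibitor of the ATP synthase, was at 262, 187 and 326 CPM in wt(ura3), against 31.5, 29.7 and 30.0 in wt(met) (log2 fold change 3.09 ± 0.21, adjusted p = 1.6e-05). QCR10 (YHR001W-A), ATP20 (YPR020W) and COX7 (YMR256C) rose with log2 fold changes of 2.90 ± 0.21, 2.67 ± 0.31 and 2.48 ± 0.27. Many of these genes are short, and with the coding length offset the list median was 1.07. CYC7 (YEL039C), the cytochrome c isoform of low oxygen, was the one that fell, at 4.39, 7.23 and 9.47 CPM in wt(ura3), against 15.7, 17.6 and 11.1 in wt(met) (adjusted p = 0.0094 by edgeR), and its call was lost without any 1 library except wt(ura3) replicate 3, while with the coding length offset its log2 fold change was -1.66. Against wt the median of the list was 2.15 with 36 called higher, and the wt(met) libraries had a median of 0.75 against wt with 14 called higher.

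Of 17 genes of the citric acid cycle, 7 rose and 0 fell. SDH2 (YLL041C), a subunit of succinate dehydrogenase, was at 335, 262 and 392 CPM in wt(ura3), against 71.7, 75.3 and 63.8 in wt(met) (log2 fold change 2.23 ± 0.18, adjusted p = 3.1e-05), and its partner genes SDH1 (YKL148C) and SDH3 (YKL141W) rose as well (log2 fold changes 1.32 ± 0.20 and 1.19 ± 0.16), SDH3 falling short of the fold minimum with the coding length offset (0.84). CIT1 (YNR001C), the main citrate synthase, was at 356, 301 and 382 CPM in wt(ura3), against 118, 108 and 109 in wt(met) (log2 fold change 1.63 ± 0.14, adjusted p = 4.2e-05). CIT3 (YPR001W), a minor mitochondrial form, was at 19, 16.8 and 24.5 CPM in wt(ura3), against 2.26, 2.89 and 2.78 in wt(met) (log2 fold change 2.92 ± 0.22, adjusted p = 2.8e-05). LSC2 (YGR244C), of succinyl-CoA ligase, and MDH1 (YKL085W), malate dehydrogenase, rose with log2 fold changes of 1.68 ± 0.17 and 1.21 ± 0.17. The list median was 0.43, and 11 of 17 were positive.

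Glycolysis and fermentation lay lower by the largest list median of the comparison. Of 21 genes, 15 fell and 0 rose, with a median log2 fold change of -2.06. Their summed level was 20260.0 to 35130.0 CPM in wt(ura3) and 119600.0 to 137000.0 CPM in wt(met). CDC19 (YAL038W), pyruvate kinase, was at 1329.6, 2690.1 and 961 CPM in wt(ura3), against 14382, 15279 and 12430.0 in wt(met) (log2 fold change -3.08 ± 0.35, adjusted p = 0.00012). PDC1 (YLR044C), pyruvate decarboxylase, was at 2309.8, 3931 and 1537 CPM in wt(ura3), against 20131, 20913 and 17815 in wt(met) (log2 fold change -2.92 ± 0.32, adjusted p = 9.7e-05). ADH1 (YOL086C), the alcohol dehydrogenase that forms ethanol, was at 549, 1142 and 1189 CPM in wt(ura3), against 7138, 8735 and 6758 in wt(met) (log2 fold change -2.97 ± 0.29, adjusted p = 6.3e-05). In all 3 the highest wt(ura3) library was several-fold below the lowest wt(met) library. The 3 genes of glyceraldehyde-phosphate dehydrogenase fell, TDH3 (YGR192C) at 2091, 4005 and 2173 CPM in wt(ura3), against 15882, 16714 and 14038 in wt(met) (log2 fold change -2.50 ± 0.27, adjusted p = 9e-05). TDH2 (YJR009C) had a log2 fold change of -2.69 ± 0.26 and TDH1 (YJL052W) one of -2.79 ± 0.67. TDH1 rested on uneven libraries, at 25.4, 153 and 21.6 CPM in wt(ura3), and its call was lost without wt(ura3) replicate 1 or wt(met) replicate 2 or 3 (adjusted p = 0.015, 0.017 and 0.011), while without wt(ura3) replicate 2 its log2 fold change was -4.29. ENO2 (YHR174W), the enolase of glucose-grown cells, had a log2 fold change of -2.98 ± 0.29, and ENO1 (YGR254W) one of -1.78 ± 0.35. Both subunits of phosphofructokinase fell (PFK1 (YGR240C) -2.11 ± 0.23 and PFK2 (YMR205C) -2.36 ± 0.26 on the log2 scale). These paralogs share sequence, so unique reads cover only the parts in which they differ. Replicate 2 was the highest wt(ura3) library for CDC19, PDC1, TDH3 and TDH2. ADH4 (YGL256W), a zinc-regulated alcohol dehydrogenase, was the only gene of the list above 0, at 174, 579 and 49.4 CPM in wt(ura3), against 72.4, 72.2 and 76.3 in wt(met), and it was not called, though it was called higher without wt(ura3) replicate 3, the lowest library (log2 fold change 2.35, adjusted p = 0.00076).

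Genes of reserve carbohydrates and of stress did not move one way. Of 18 genes of trehalose and glycogen, 0 rose and 7 fell. Against wt 3 were called higher and 3 lower, and the list median was 0.32, compared with -0.81 against wt(met). TPS2 (YDR074W), trehalose phosphatase, was at 58.6, 72.3 and 51.2 CPM in wt(ura3), against 198, 215 and 152 in wt(met) (log2 fold change -1.63 ± 0.18, adjusted p = 0.00011), and against wt its log2 fold change was -1.57. The glycogen genes GPH1 (YPR160W), the phosphorylase, and GLC3 (YEL011W), the branching enzyme, fell against wt(met), at 25.6, 45.5 and 42.7 and 36.8, 61.8 and 67.3 CPM in wt(ura3) and 122, 118 and 78.4 and 177, 165 and 133 CPM in wt(met). Against wt, at 17.4, 19.4 and 9.2 CPM for GPH1 and 25.9, 29.6 and 18.1 CPM for GLC3, they were called higher (log2 fold changes 1.33 and 1.19), so the direction for these genes depends on which wild type is taken. The same was found for RTC3 (YHR087W), a stress gene (-1.17 against wt(met) and 1.25 against wt on the log2 scale), whose call against wt(met) was lost without wt(ura3) replicate 3 (-0.96) or wt(met) replicate 2 (adjusted p = 0.012).

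Of 45 stress-induced genes, 2 rose and 14 fell, with a median of -0.41. Against wt the same list had a median of 0.42 with 16 called higher and 11 lower, so its direction depends on which wild type is taken. HSP12 (YFL014W), a small membrane-associated stress protein, was at 459, 1226 and 363 CPM in wt(ura3), against 128, 101 and 92.5 in wt(met) (log2 fold change 2.67 ± 0.42, adjusted p = 0.00052), and wt lay lower still, at 4.61, 4.62 and 8.21 CPM. HOR7 (YMR251W-A) also rose (log2 fold change 1.38 ± 0.23, adjusted p = 0.00074), a call lost with the coding length offset (log2 fold change 0.61). Heat shock proteins and chaperones were mixed, with some called lower and others not called. HSP30 (YCR021C), a plasma membrane heat shock protein, was at 2.73, 2.66 and 3.87 CPM in wt(ura3), against 45.3, 60.2 and 54.9 in wt(met) (log2 fold change -4.12 ± 0.21, adjusted p = 2.9e-06). HSP42 (YDR171W), a small heat shock protein, was at 31.4, 38.6 and 23 CPM in wt(ura3), against 243, 289 and 173 in wt(met) (log2 fold change -2.92 ± 0.25, adjusted p = 3.9e-05). SSA2 (YLL024C), of the Hsp70 family, was at 230.0, 479.5 and 222 CPM in wt(ura3), against 2038, 2478 and 2122 in wt(met) (log2 fold change -2.83 ± 0.30, adjusted p = 8.6e-05). HSP104 (YLL026W), the disaggregase, SSE1 (YPL106C), a nucleotide exchange factor of Hsp70, and HSC82 (YMR186W), the constitutive Hsp90, had log2 fold changes of -1.74 ± 0.13, -1.70 ± 0.20 and -1.55 ± 0.24. Members of the same kind that were not called, named after their values were seen, were SSA3 (YBL075C) and SSA4 (YER103W), stress forms of Hsp70, HSP26 (YBR072W) and HSP78 (YDR258C), with log2 fold changes of 0.32, 0.31, 0.19 and 0.16, and HSP82 (YPL240C), the inducible Hsp90, SSE2 (YBR169C) and SIS1 (YNL007C), whose log2 fold changes missed the fold minimum at -0.86, -0.79 and -0.84. Without wt(ura3) replicate 2 SSE2 was called lower (-1.08) and HSP26 had a log2 fold change of -0.92. For HSP104, SSE1 and HSC82 the log2 fold changes against wt were -1.91, -1.96 and -1.64.

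The wt(ura3) strain lacks MET15, whose enzyme joins sulfide to O-acetylhomoserine, while wt(met) has it, and genes of sulfur metabolism were examined with that in view. Of 25 genes of sulfate assimilation and methionine, 12 rose and 3 fell, and of 12 regulators and transporters 6 rose and 1 fell. Their activators bind together with Cbf1, whose motif CACGTG (both strands, same windows) occurred in 6.23% of all windows, in 15 of the 25 and in 6 of the 12. STR3, SUL1, SAM3 and MUP1, which are among the genes that rose, had no match, whereas MET3, MET14 and MET16 held a match. A few sites of genes that moved in either direction are shown with the motif in capitals.
MET28, chrIX:384328-384343, minus strand, 219 bases before the start codon: gagtgCACGTGactta
MET2, chrXIV:116991-117006, plus strand, 353 bases before the start codon: attttCACGTGatgcg
SAM2, chrIV:1454777-1454792, minus strand, 323 bases before the start codon: ctaccCACGTGactat
CYS3, chrI:130578-130593, plus strand, 216 bases before the start codon: ccattCACGTGatctc

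MET28 (YIR017C), a cofactor of the activator Met4, was at 55.8, 93.9 and 67.9 CPM in wt(ura3), against 6.02, 8.07 and 5.62 in wt(met) (log2 fold change 3.46 ± 0.24, adjusted p = 1.7e-05). MET2 (YNL277W), which acetylates homoserine, was at 37.3, 82.1 and 42.4 CPM in wt(ura3), against 6.02, 7.83 and 6.18 in wt(met) (log2 fold change 3.01 ± 0.31, adjusted p = 7.5e-05). SAM2 (YDR502C), an S-adenosylmethionine synthetase, was at 506, 685 and 932 CPM in wt(ura3), against 135, 132 and 122 in wt(met) (log2 fold change 2.45 ± 0.22, adjusted p = 4.5e-05), whereas its paralog SAM1 (YLR180W) was at 183, 244 and 149 CPM in wt(ura3), against 592, 645 and 505 in wt(met) and fell (log2 fold change -1.59 ± 0.20, adjusted p = 0.00018). All libraries of wt(ura3) were above wt(met) for MET28, MET2 and SAM2 and below it for SAM1. STR3 (YGL184C), which splits cystathionine to homocysteine, rose (log2 fold change 2.90 ± 0.24, adjusted p = 3.9e-05). CYS3 (YAL012W), which splits it to cysteine and has a CACGTG match, fell (log2 fold change -1.75 ± 0.30, adjusted p = 9e-04). The methionine permease MUP1 (YGR055W) was at 259, 352 and 314 CPM in wt(ura3), against 68.4, 65.3 and 70.3 in wt(met) (log2 fold change 2.18 ± 0.15, adjusted p = 2e-05), and the S-adenosylmethionine permease SAM3 (YPL274W) was at 292, 346 and 272 CPM in wt(ura3), against 57, 54.9 and 63.7 in wt(met) (log2 fold change 2.37 ± 0.15, adjusted p = 1.2e-05). Of the sulfate path itself, MET3 (YJR010W), MET14 (YKL001C) and MET16 (YPR167C), its first 3 enzymes, rose with log2 fold changes of 1.59 ± 0.21, 1.49 ± 0.24 and 1.33 ± 0.13. The sulfate permease SUL1 (YBR294W) was at 1.6, 11.5 and 1.45 CPM in wt(ura3), against 0.376, 0.294 and 0.557 in wt(met). Its log2 fold change of 3.55 was 1.90 without wt(ura3) replicate 2, the highest library, and its call was lost without any 1 wt(met) library (adjusted p 0.015 to 0.026). OPT1 (YJL212C), a glutathione transporter, was at 2.61, 17.3 and 6.5 CPM in wt(ura3), against 31.9, 36.3 and 31.4 in wt(met), and its log2 fold change of -1.92 was -2.88 without wt(ura3) replicate 2 and lost its call without wt(ura3) replicate 3 or any wt(met) library, with the coding length offset and in DESeq2 (adjusted p 0.011 to 0.027). The activator MET4 (YNL103W) was at 89.2, 114 and 85.4 CPM in wt(ura3), against 91.7, 103 and 86.5 in wt(met) and was not called.

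These values can be set beside wt, which lacks MET15 as wt(ura3) does, and the comparisons share the wt(ura3) libraries. Against wt the log2 fold changes were 3.17 for MET28, 2.29 for MET2, 2.34 for SAM2, 2.23 for MUP1 and 2.49 for SAM3, each called. In wt(met) against wt, which differ in MET15 and count table, they were -0.27, -0.71, -0.089, 0.071 and 0.14 for the same genes, none called, and 0 of the 25 genes and 0 of the 12 were called in either direction.

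Genes of arginine synthesis rose in part. Of 13 arginine genes, 6 rose and 1 fell. ARG3 (YJL088W), ornithine carbamoyltransferase, was at 19.6, 81.3 and 23 CPM in wt(ura3), against 2.88, 3.33 and 2.28 in wt(met) (log2 fold change 3.86 ± 0.55, adjusted p = 0.00033), with wt(ura3) replicate 2 the highest. ARG1 (YOL058W) and ARG4 (YHR018C), which make arginine from citrulline, were at 119, 338 and 139.8 and 342, 387 and 408 CPM in wt(ura3) and 39.5, 42.4 and 38 and 82.2, 82.2 and 90.3 CPM in wt(met) (log2 fold changes 2.32 ± 0.36 and 2.16 ± 0.14). ARG8 (YOL140W) and the mitochondrial ornithine carrier gene ORT1 (YOR130C) rose by 2.10 ± 0.19 and 1.76 ± 0.16 on the log2 scale. CAR2 (YLR438W), which degrades ornithine, was at 13.6, 22.5 and 11 CPM in wt(ura3), against 73.8, 97.5 and 62.9 in wt(met) and fell (log2 fold change -2.32 ± 0.27, adjusted p = 0.00013). CAR1 (YPL111W), arginase, was at 54, 84.6 and 107 CPM in wt(ura3), against 108, 123 and 111 in wt(met) and was not called.

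Other biosynthetic paths of amino acids differed among themselves. Of 12 branched-chain genes 0 rose and 6 fell, and of 24 further genes 1 rose and 8 fell. Of 16 aromatic genes 0 rose and 3 fell, 18.8% called against 27.3% of all genes. Of 9 lysine genes 1 rose and 2 fell, and of 6 histidine genes 0 rose and 2 fell with 3 of the 6 positive and a median of -0.058. The lysine and histidine lists each had 33.3% called. ILV6 (YCL009C), the regulatory subunit of acetolactate synthase, was at 207, 296 and 202 CPM in wt(ura3), against 764, 942 and 682 in wt(met) (log2 fold change -1.76 ± 0.20, adjusted p = 0.00011). BAT2 (YJR148W), the cytosolic branched-chain transaminase, was at 84.3, 102 and 109.9 CPM in wt(ura3), against 309.7, 325 and 278 in wt(met) (log2 fold change -1.62 ± 0.15, adjusted p = 5.1e-05). LEU9 (YOR108W) fell (log2 fold change -1.12 ± 0.15, adjusted p = 0.00025). LEU1 (YGL009C) was at 909.9, 1206 and 643 CPM in wt(ura3), against 910.5, 985 and 932 in wt(met) and was not called. THR1 (YHR025W) and THR4 (YCR053W), the last steps of threonine synthesis, had log2 fold changes of -1.88 ± 0.18 and -1.71 ± 0.20, and the asparagine synthetases ASN1 (YPR145W) and ASN2 (YGR124W) of -1.61 ± 0.16 and -1.59 ± 0.23. LYS20 (YDL182W), homocitrate synthase, was at 50.8, 60.6 and 27.9 CPM in wt(ura3), against 194, 208 and 187 in wt(met) (log2 fold change -2.08 ± 0.25, adjusted p = 0.00015), and LYS5 (YGL154C), the 1 lysine gene that rose, had a log2 fold change of 1.14 ± 0.18. HIS1 (YER055C), the first enzyme of histidine synthesis, was at 328, 317 and 284 CPM in wt(ura3), against 907, 988 and 986 in wt(met) (log2 fold change -1.63 ± 0.14, adjusted p = 3.9e-05). HIS4 (YCL030C) was at 117, 180.0 and 68.9 CPM in wt(ura3), against 452, 496 and 485 in wt(met) (log2 fold change -1.97 ± 0.29, adjusted p = 0.00041), lies in the chromosome III stretch, and was at 281, 257 and 370.0 CPM in wt (log2 fold change -1.29 against wt).

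GCN4 (YEL009C), which encodes the activator of these paths and is controlled mainly in translation, was at 769, 829 and 721 CPM in wt(ura3), against 1306, 1199 and 1449 in wt(met) (log2 fold change -0.77 ± 0.14, adjusted p = 0.0013), below the fold threshold. Its wt(ura3) libraries all lay below the wt(met) libraries. A list of Gcn4-bound genes comes from chromatin immunoprecipitation in the PGAL-GST-GCN4 strain of the same series. Of its 146 tested genes, 34 rose and 22 fell, with a median of 0.16 against 0.029 over all genes. Members ran in both directions, from GAL7, ARG3 and STR3 above to MGA1 (YGR249W), a heat shock factor-like regulator of filamentous growth, at 1.48, 2.39 and 1.45 CPM in wt(ura3), against 30.1, 31.7 and 19.4 in wt(met) (log2 fold change -3.93 ± 0.29, adjusted p = 2.5e-05). VHS1 (YDR247W), a kinase gene, fell as well (log2 fold change -2.11 ± 0.23).

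Purine synthesis lay lower. Of 23 genes of purine and one-carbon metabolism, 0 rose and 11 fell, and 21 had a negative log2 fold change, with a median of -0.84. Without wt(ura3) replicate 2, 7 were called lower. GUA1 (YMR217W), GMP synthase, was at 156, 165 and 103 CPM in wt(ura3), against 663, 615 and 642 in wt(met) (log2 fold change -2.18 ± 0.19, adjusted p = 4.2e-05). ADE6 (YGR061C) was at 192, 164 and 107 CPM in wt(ura3), against 545, 528 and 589 in wt(met) (log2 fold change -1.84 ± 0.21, adjusted p = 0.00012). ADE13 (YLR359W) and ADE12 (YNL220W), of AMP synthesis, fell with log2 fold changes of -1.68 ± 0.22 and -1.10 ± 0.17. The pyrimidine genes gave no such count, with 2 of 18 called higher and 2 lower (22.2% called), and with 3 called higher and 5 lower under the coding length offset. URA10 (YMR271C), the minor orotate phosphoribosyltransferase, was at 38.5, 56 and 51.2 CPM in wt(ura3), against 9.71, 9.88 and 9.52 in wt(met) (log2 fold change 2.32 ± 0.18, adjusted p = 2.8e-05). FUI1 (YBL042C), the uridine permease, was at 270.0, 217 and 246 CPM in wt(ura3), against 89.9, 81.8 and 95.9 in wt(met) (log2 fold change 1.45 ± 0.14, adjusted p = 6e-05). FUR1 (YHR128W), which salvages uracil, was at 153, 143 and 190.2 CPM in wt(ura3), against 499, 427 and 471 in wt(met) (log2 fold change -1.52 ± 0.16, adjusted p = 7.6e-05). Against wt, which also lacks URA3, the log2 fold changes of these 3 genes were 2.36, 1.02 and -1.16.

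Genes for nitrogen sources of lower quality rose. Of 16 tested genes under nitrogen catabolite repression, 7 rose and 0 fell, and of 27 genes of amino acid and ammonium uptake, 9 rose and 1 fell. The allantoin genes DAL3 (YIR032C) and DAL2 (YIR029W) were at 37.8, 36.4 and 51.4 and 54.2, 40.2 and 68.2 CPM in wt(ura3) and 4.95, 7.73 and 5.4 and 16.2, 15.3 and 14.2 CPM in wt(met) (log2 fold changes 2.79 ± 0.23 and 1.83 ± 0.20). DAL7 (YIR031C), a malate synthase of allantoin use, was at 112, 75.5 and 124 CPM in wt(ura3), against 22.1, 23.7 and 23.3 in wt(met) (log2 fold change 2.17 ± 0.19, adjusted p = 4.2e-05). DUR3 (YHL016C), a urea permease, and DAL5 (YJR152W), the allantoate permease, rose with log2 fold changes of 1.27 ± 0.17 and 1.59 ± 0.17, and MEP2 (YNL142W), the high-affinity ammonium permease, with 1.31 ± 0.23. GAP1 (YKR039W), the general amino acid permease, was at 28.9, 68.9 and 28.6 CPM in wt(ura3), against 16.4, 10.6 and 13.3 in wt(met) (log2 fold change 1.65 ± 0.34, adjusted p = 0.0024), a call lost without wt(met) replicate 2 or 3 (adjusted p = 0.014 and 0.012). OPT2 (YPR194C), an oligopeptide transporter, was at 25.4, 13.3 and 26.5 CPM in wt(ura3), against 1.63, 1.52 and 1.84 in wt(met) (log2 fold change 3.71 ± 0.31, adjusted p = 3.9e-05), whereas PTR2 (YKR093W), the dipeptide transporter, was at 14.4, 19.5 and 11.8 CPM in wt(ura3), against 70.0, 75.5 and 59.1 in wt(met) (log2 fold change -2.17 ± 0.20, adjusted p = 5.1e-05).

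Genes that respond to inositol and vitamins rose. Of 18 genes of biotin, inositol and phospholipids, 11 rose and 0 fell. INO1 (YJL153C), which makes inositol phosphate from glucose phosphate, was at 215, 275 and 1135 CPM in wt(ura3), against 5.95, 5.82 and 6.12 in wt(met) (log2 fold change 6.50 ± 0.67, adjusted p = 7.7e-05), with replicate 3 the highest library of wt(ura3) and all 3 far above wt(met). OPI3 (YJR073C), a methyltransferase of phosphatidylcholine synthesis, was at 424, 549 and 848 CPM in wt(ura3), against 47.7, 60.9 and 51.8 in wt(met) (log2 fold change 3.50 ± 0.26, adjusted p = 2.6e-05). CHO1 (YER026C), phosphatidylserine synthase, was at 213, 272 and 429 CPM in wt(ura3), against 85.9, 78.7 and 94.9 in wt(met) (log2 fold change 1.82 ± 0.24, adjusted p = 0.00023). PSD1 (YNL169C), phosphatidylserine decarboxylase, and ITR1 (YDR497C), the inositol permease, rose with log2 fold changes of 1.68 ± 0.17 and 1.80 ± 0.24. The repressor OPI1 (YHL020C) and the activator INO2 (YDR123C) of these genes both rose (1.68 ± 0.24 and 1.07 ± 0.15 on the log2 scale), though INO2 was below the fold minimum without wt(ura3) replicate 2 (0.99), without wt(met) replicate 3 (0.997) and with the coding length offset (0.90). Of the biotin genes, BIO3 (YNR058W) was at 21.5, 24.1 and 19.2 CPM in wt(ura3), against 4.7, 5.14 and 5.4 in wt(met) (log2 fold change 2.09 ± 0.18, adjusted p = 4.1e-05). VHT1 (YGR065C), the biotin permease, rose by 1.78 ± 0.14.

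Of 25 tested genes of thiamine and vitamin B6, 10 rose and 1 fell. SNZ3 (YFL059W) was at 11.4, 7.7 and 12.8 CPM in wt(ura3), against 1.07, 1.17 and 2.06 in wt(met) (log2 fold change 2.89 ± 0.32, adjusted p = 9.7e-05). The 10 members that rose were at most 12.8 CPM in any library, and SNZ2 with SNZ3, SNO2 with SNO3, and the THI genes of the family of THI11 to THI13 are near-identical copies, so their reads cannot be assigned with certainty. The member that fell, PHO3 (YBR092C), an acid phosphatase repressed by thiamine, was at 38.9, 37.8 and 41.6 CPM in wt(ura3), against 145, 157 and 154 in wt(met) (log2 fold change -1.95 ± 0.13, adjusted p = 1.2e-05).

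The phosphate regulon lay lower. It is switched on by the activator Pho4 when phosphate is short. Of 21 genes, 1 rose and 13 fell, 66.7% called against 27.3% of all genes, with a median log2 fold change of -1.40. PHO84 (YML123C), the high-affinity phosphate transporter, was at 1.78, 3.82 and 1.31 CPM in wt(ura3), against 604, 596 and 579 in wt(met), a 258-fold difference (log2 fold change -8.01 ± 0.35, adjusted p = 9.7e-07). SPL2 (YHR136C), which lowers low-affinity phosphate uptake, was at 2.43, 2.93 and 2.77 CPM in wt(ura3), against 66.2, 64.7 and 66.6 in wt(met) (log2 fold change -4.60 ± 0.16, adjusted p = 1.6e-07). PHO12 (YHR215W), an acid phosphatase, was at 3.86, 5.25 and 3.66 CPM in wt(ura3), against 50.3, 45.8 and 52.1 in wt(met) (log2 fold change -3.54 ± 0.19, adjusted p = 3.5e-06). PHO89 (YBR296C), a sodium-coupled phosphate transporter, was at 10.1, 6 and 8.78 CPM in wt(ura3), against 69.6, 49.9 and 64.1 in wt(met) (log2 fold change -2.88 ± 0.22, adjusted p = 2.9e-05). Groups did not overlap in any of the 4. The polyphosphate polymerase subunits VTC3 (YPL019C), VTC1 (YER072W) and VTC4 (YJL012C) fell with log2 fold changes of -2.80 ± 0.17, -1.85 ± 0.15 and -1.73 ± 0.13. PHO5 (YBR093C), the classic acid phosphatase, was at 17.7, 15.8 and 13.1 CPM in wt(ura3), against 34.8, 31.9 and 37.8 in wt(met) (log2 fold change -1.16 ± 0.17, adjusted p = 0.00032). PHO81 (YGR233C), the inhibitor of Pho85, was at 32.8, 43.6 and 28.7 CPM in wt(ura3), against 90.9, 102 and 85.5 in wt(met) (log2 fold change -1.40 ± 0.17, adjusted p = 0.00017), and was below the fold minimum with the coding length offset (log2 fold change -0.92). The gene that rose was GIT1 (YCR098C), a transporter of glycerophosphoinositol, at 5.99, 7.77 and 11.1 CPM in wt(ura3), against 3.13, 3.33 and 5.01 in wt(met) (adjusted p = 0.0078 by edgeR), and its call was lost in 5 of the alternative analyses. Against wt the regulon had 14 called lower, and log2 fold changes were -7.97 for PHO84 and -4.46 for SPL2.

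Some zinc genes rose but were uneven among the wt(ura3) libraries. ZRT1 (YGL255W), the high-affinity zinc transporter, was at 1219, 1215 and 212 CPM in wt(ura3), against 31.2, 27.5 and 34.3 in wt(met) (log2 fold change 4.83 ± 0.59, adjusted p = 0.00016). ZPS1 (YOL154W), a zinc-regulated cell surface protein, was at 861, 1124 and 35.5 CPM in wt(ura3), against 8.71, 9.05 and 7.35 in wt(met) (log2 fold change 6.33 ± 1.04, adjusted p = 0.00065). Their activator ZAP1 (YJL056C) was at 115, 203 and 33.7 CPM in wt(ura3), against 28.8, 30.0 and 22.7 in wt(met) (log2 fold change 2.11 ± 0.50), and its call was lost without wt(ura3) replicate 1 or 2 or any wt(met) library (adjusted p 0.012 to 0.024). In all 3 genes wt(ura3) replicate 3 was the lowest of its group by several-fold, though still above wt(met). FET4 (YMR319C), a low-affinity iron, copper and zinc transporter, was at 22.5, 30.1 and 2.97 CPM in wt(ura3), against 122, 121 and 132 in wt(met) (log2 fold change -2.75 ± 0.58, adjusted p = 0.0025), and there too replicate 3 stood apart. Of 15 tested copper and zinc genes, 5 rose and 0 fell (33.3% called against 27.3% of all genes). Of 30 iron genes, 3 rose and 5 fell, close in share to all genes (26.7% against 27.3%). HMX1 (YLR205C), 1 of those that rose, lost its call in 10 of 14 alternatives. Against wt 1 iron gene was called higher and 14 lower, with a median of -0.83 compared with -0.24 against wt(met). In wt(met) against wt, 4 were called lower, so the count for iron genes depends on which wild type is taken. The mannoprotein genes FIT3 (YOR383C) and FIT2 (YOR382W), which help to hold iron siderophores, were at 8.25, 13.6 and 16 and 13.1, 18.7 and 27.2 CPM in wt(ura3) and 101, 114 and 99.9 and 73.2, 91.5 and 58.5 CPM in wt(met) (log2 fold changes -3.06 ± 0.23 and -1.92 ± 0.27). FRE1 (YLR214W), a ferric reductase, fell (log2 fold change -1.70 ± 0.31, adjusted p = 0.0012).

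Genes of low oxygen and cell wall mannoproteins lay lower. Of 24 tested, 1 rose and 12 fell, and 22 had a negative log2 fold change. TIR1 (YER011W), a mannoprotein induced by cold and anaerobiosis, was at 2.19, 3.95 and 2 CPM in wt(ura3), against 118, 130.4 and 89.1 in wt(met) (log2 fold change -5.37 ± 0.28, adjusted p = 2.9e-06). TIR3 (YIL011W) was at 3.2, 7.84 and 4.22 CPM in wt(ura3), against 57.5, 61 and 46.1 in wt(met) (log2 fold change -3.44 ± 0.30, adjusted p = 4.2e-05). ANB1 (YJR047C), the hypoxic form of translation factor eIF5A, was at 1.3, 1.7 and 2.07 CPM in wt(ura3), against 46.4, 49.6 and 43.9 in wt(met) (log2 fold change -4.79 ± 0.21, adjusted p = 9.7e-07). HEM13 (YDR044W), a haem synthesis gene repressed by oxygen and haem, was at 26.3, 41.3 and 27.9 CPM in wt(ura3), against 138, 145 and 142 in wt(met) (log2 fold change -2.15 ± 0.18, adjusted p = 4e-05). The abundant wall protein CCW12 (YLR110C) was at 10780.4, 10323 and 11344 CPM in wt(ura3), against 30449.9, 35654 and 27486 in wt(met) (log2 fold change -1.53 ± 0.17, adjusted p = 1e-04). HSP150 (YJL159W) and CCW14 (YLR390W-A) fell with log2 fold changes of -1.76 ± 0.27 and -1.68 ± 0.23. Sterol synthesis, which needs oxygen, had 0 of 28 genes called higher and 8 called lower (28.6% called against 27.3% of all genes). NCP1 (YHR042W), the reductase that serves the sterol enzymes, was at 104, 143 and 86.8 CPM in wt(ura3), against 540.1, 558 and 469 in wt(met) (log2 fold change -2.23 ± 0.20, adjusted p = 4.5e-05). ERG25 (YGR060W) and ERG11 (YHR007C) had log2 fold changes of -1.69 ± 0.20 and -1.19 ± 0.17, and their activator UPC2 (YDR213W) one of -1.57 ± 0.21.

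**Figure D4:**
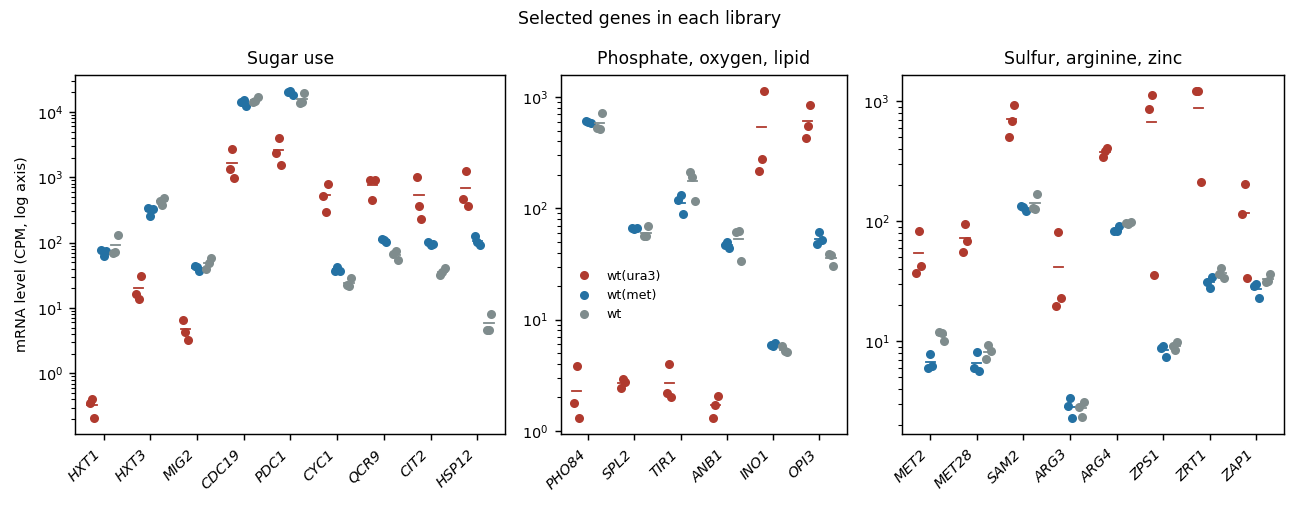
mRNA level in CPM (y axes, log scale) of 23 genes of sugar use, of phosphate, oxygen and lipids, and of sulfur, arginine and zinc, in the 3 libraries each of wt(ura3), wt(met) and wt. Points are libraries and bars group means. In PHO84 the wt(ura3) libraries lie at 3.82 CPM or below and the wt(met) libraries at 579 CPM or above, and in ZPS1, ZRT1 and ZAP1 replicate 3 lies apart from the other wt(ura3) libraries.

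Genes that build and run ribosomes lay lower. Of 84 genes of ribosome biogenesis, 0 rose and 31 fell, with a median log2 fold change of -0.92 and a summed level of 15900.0 to 17670.0 CPM in wt(ura3) and 29570.0 to 30860.0 CPM in wt(met). KRR1 (YCL059C), needed for the small subunit, was at 142, 159 and 156 CPM in wt(ura3), against 671, 639 and 775 in wt(met) (log2 fold change -2.19 ± 0.15, adjusted p = 1.6e-05). SPB1 (YCL054W), an rRNA methyltransferase, was at 161, 172 and 130.3 CPM in wt(ura3), against 482, 452 and 499 in wt(met) (log2 fold change -1.63 ± 0.15, adjusted p = 5.1e-05), both in the chromosome III stretch. Outside that stretch, SDA1 (YGR245C) was at 125, 163 and 104 CPM in wt(ura3), against 445, 420.0 and 454 in wt(met) (log2 fold change -1.75 ± 0.18, adjusted p = 7.5e-05). GAR1 (YHR089C), of the snoRNPs that make pseudouridine, was at 198, 217 and 228 CPM in wt(ura3), against 667, 699 and 633 in wt(met) (log2 fold change -1.64 ± 0.14, adjusted p = 3.9e-05). NOP56 (YLR197W), of the snoRNPs that methylate rRNA, was at 496, 552 and 430.2 CPM in wt(ura3), against 1392, 1345 and 1269 in wt(met) (log2 fold change -1.44 ± 0.15, adjusted p = 7.8e-05). All of these genes had groups that did not overlap. Of 21 genes of RNA polymerases I and III, 0 rose and 5 fell (23.8% called against 27.3% of all genes), and 2 fell without wt(ura3) replicate 3. The list median was -0.63, whereas against wt it was -0.14 with 4 called higher and 6 lower. The result for this list therefore depends on which wild type is taken. RPA190 (YOR341W), the largest subunit of polymerase I, fell by 1.32 on the log2 scale, and by 0.63, no longer called, with the coding length offset.

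Of 139 ribosomal protein genes, 1 rose and 44 fell, 32.4% called, with a median log2 fold change of -0.80. With the coding length offset, 0 rose and 80 fell. Many of these genes are short. Their summed level was 169900.0 to 245700.0 CPM in wt(ura3) and 366300.0 to 383700.0 CPM in wt(met). RPL4A (YBR031W) was at 513, 634 and 525 CPM in wt(ura3), against 2909, 2871 and 3134 in wt(met) (log2 fold change -2.41 ± 0.15, adjusted p = 1.2e-05). RPL5 (YPL131W) was at 1199, 1280.2 and 1017 CPM in wt(ura3), against 4780.2, 4959 and 4449 in wt(met) (log2 fold change -2.02 ± 0.16, adjusted p = 2.9e-05) and RPP0 (YLR340W), of the ribosomal stalk, at 1448, 1674 and 1416 CPM in wt(ura3), against 5078, 5111 and 5438 in wt(met) (log2 fold change -1.78 ± 0.15, adjusted p = 3.9e-05). Many of these genes are paralog pairs, for which unique reads are fewer. Against wt the median was -0.31 with 6 called higher and 19 called lower, and in wt(met) against wt it was 0.54 with 19 called higher and 0 lower. The size of the difference in ribosomal protein genes therefore depends on which wild type is taken.

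Of 36 initiation factor genes 2 rose and 9 fell (30.6% called against 27.3% of all genes). Of 20 elongation factor genes 2 rose and 7 fell (45% called). With the coding length offset, 3 elongation factor genes were called higher and 11 lower. DED1 (YOR204W), an RNA helicase of initiation, was at 89.1, 90.5 and 54.2 CPM in wt(ura3), against 324, 421 and 270.0 in wt(met) (log2 fold change -2.12 ± 0.24, adjusted p = 0.00011). TIF3 (YPR163C), eIF4B, was at 221, 324 and 232 CPM in wt(ura3), against 839.6, 955 and 832 in wt(met) (log2 fold change -1.76 ± 0.18, adjusted p = 7.5e-05). YEF3 (YLR249W), elongation factor 3, was at 950.2, 1156 and 701 CPM in wt(ura3), against 4088, 4132 and 4145 in wt(met) (log2 fold change -2.14 ± 0.20, adjusted p = 5e-05). EFB1 (YAL003W) had a log2 fold change of -2.20 ± 0.16 and TEF4 (YKL081W) one of -2.29 ± 0.20. The members that rose included the mitochondrial factors IFM1 (YOL023W) and MEF1 (YLR069C), at 47.9, 88.4 and 124 and 76.7, 124 and 135 CPM in wt(ura3) and 28.4, 27.4 and 30.3 and 47.1, 42.3 and 47.9 CPM in wt(met) (log2 fold changes 1.60 ± 0.29 and 1.29 ± 0.20). The largest rise among the elongation factor genes was that of YGR201C (log2 fold change 1.388).

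Outside all lists, 924 called genes were expressed at an average log2 CPM of 4 or more and had groups without overlap, 534 higher and 390 lower. The 10 with the largest rise were SDD1 (YEL057C), YEL073C, MRA1 (YPR010C-A), YHL048C-A, GPG1 (YGL121C), RGI2 (YIL057C), RRT6 (YGL146C), NCE103 (YNL036W), PDH1 (YPR002W) and EDS1 (YBR033W). SDD1 was at 166, 80.2 and 281 CPM in wt(ura3), against 5.58, 6.26 and 4.51 in wt(met) (log2 fold change 5.01 ± 0.44, adjusted p = 4.2e-05). The function of several of these genes is not well known. NCE103, carbonic anhydrase, was at 818, 275 and 327 CPM in wt(ura3), against 45.8, 39.1 and 41.3 in wt(met) (log2 fold change 3.49 ± 0.39, adjusted p = 0.00011), with replicate 1 the highest. PDH1, a putative methylcitrate dehydratase of propionate use, was at 69.5, 78 and 96.4 CPM in wt(ura3), against 9.4, 7.58 and 7.01 in wt(met) (log2 fold change 3.35 ± 0.19, adjusted p = 5.2e-06), and the range of the 10 log2 fold changes was 3.26 (EDS1) to 5.01 (SDD1). RGI2, a gene of respiratory growth, was at 6.05, 7.09 and 85.7 CPM in wt(ura3), against 3.7, 1.81 and 2.12 in wt(met). Its log2 fold change of 3.71 was 1.38 without wt(ura3) replicate 3, the highest library, and its call was lost without any 1 wt(met) library and with the coding length offset (adjusted p 0.014 to 0.036).

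The 10 with the largest fall were BSC1 (YDL037C), PRM7 (YDL039C), BTN2 (YGR142W), YBR238C, SRO9 (YCL037C), AIM17 (YHL021C), RNQ1 (YCL028W), NPL3 (YDR432W), CIP1 (YPL014W) and APA1 (YCL050C), with log2 fold changes of -5.28 (BSC1) to -2.44 (APA1). BSC1 and PRM7 are neighbours on chromosome IV. BSC1 was at 8.9, 2.32 and 0.553 CPM in wt(ura3), against 158, 237 and 75.2 in wt(met) (log2 fold change -5.28 ± 0.75, adjusted p = 0.00031), and PRM7 was at 21.9, 6.48 and 2.63 CPM in wt(ura3), against 131, 119 and 98.9 in wt(met) (log2 fold change -3.48 ± 0.58, adjusted p = 0.00072), and replicate 1 was the highest wt(ura3) library in both. BTN2, which sorts misfolded proteins, was at 32.4, 30.3 and 27.4 CPM in wt(ura3), against 218, 215 and 198 in wt(met) (log2 fold change -2.81 ± 0.14, adjusted p = 2.3e-06), and NPL3, an mRNA export and splicing factor, was at 129, 166 and 95.9 CPM in wt(ura3), against 709.7, 863 and 569.7 in wt(met) (log2 fold change -2.46 ± 0.23, adjusted p = 5.8e-05). RNQ1, a prion protein, was at 66.3, 99.6 and 66.8 CPM in wt(ura3), against 409, 539 and 334 in wt(met) (log2 fold change -2.46 ± 0.23, adjusted p = 5.3e-05), lies in the chromosome III stretch with SRO9 and APA1, and was at 177, 159.8 and 179 CPM in wt, with wt(met) called higher than wt (log2 fold change 1.35). For SRO9 and APA1 the log2 fold changes of wt(met) against wt were 0.18 and 0.19, not called. Those of wt(ura3) against wt were -2.51 and -2.265.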

How the data were processed

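mRNA libraries of wt(ura3), wt(met) and wt were compared as read counts per gene. Per the methods of the study, the authors trimmed reads, mapped them to the yeast transcriptome with segemehl and kept uniquely mapped reads, and the deposited counts are whole numbers of reads per gene that were not normalised. The submitters' processing notes name the genome build sacCer3 and DESeq2. Columns of deletion strains (15) were not used. Tables were joined on systematic names, symbols were taken from RefSeq (2 shared identifiers without a symbol row kept their systematic names), and the 5731 shared genes were filtered with filterByExpr, which left 5563. Counts were scaled by TMM and tested with glmQLFTest of edgeR 4.0.16 in R 4.3.3, two-sided, with Benjamini-Hochberg adjustment over all genes tested and the thresholds of the study (adjusted p below 0.01, fold over 2). wt(ura3) against wt and wt(met) against wt came from 1 fit of 9 libraries (5557 genes), and the CPM of all strains stand on 1 common TMM scale. As the tables differ between the groups, normalisation across tables rests on this scaling alone. The alternatives were relative log expression scaling, scaling without the galactose, marker and 50 most abundant genes, no filter, DESeq2 1.42.0, fits with more groups, a replicate block, a coding length offset, other fold minimums and leaving out each library. The test was checked on simulated counts. The methods of the study describe the replicates of each strain as biological replicates, while the labels do not describe the cultures. The p-values measure the spread between these libraries, and no pair of them agreed within counting noise. Named genes were members of the gene lists with the largest called changes or a defining role, and the 10 largest rises and 10 largest falls outside all lists, among called genes without overlap whose average log2 CPM was 4 or more. The comparison, members and lists were chosen with earlier results of these data known. Lists of ribosomal proteins, translation factors and Gcn4 targets are those of the study.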

Additional observations from a re-analysis of the deposited data

How the results depend on the processing

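Under 14 alternatives 280 called genes were examined, mostly those with the largest changes, so their stability does not stand for all called genes. Of these, 243 stayed called in the same direction under each and 37 lost the call under at least 1. Among them, losses were most frequent when a wt(met) library was left out (13 to 19) or with the coding length offset (17). Of all 1518 called genes, leaving out 1 library kept 1262 (without wt(ura3) replicate 3) to 1468 (without wt(ura3) replicate 2). The number of genes called in wt(ura3) against wt(met) was 1509 with relative log expression scaling, 1527 in DESeq2, 1532 without the count filter, 1314 with the coding length offset, 1491 without the genes of the left arm of chromosome III (chosen after seeing the data), and 1326 to 1744 when 1 library was left out, lowest without wt(ura3) replicate 3 and highest without replicate 2. Without the fold minimum it was 2757 and with a fold minimum of 4 it was 267. For wt(ura3) against wt, 1908 to 2378 genes were called with 1 library left out and 3600 without the fold minimum, and for wt(met) against wt 117 to 167 and 585, against 202 with all libraries, with 117 found without wt replicate 3. The main fit did not pair samples by replicate number. Correlations of deviations were -0.0403, 0.217 and 0.188 between libraries of the same number and -0.257 to 0.0861 between those of different numbers. A replicate block gave 1524 called genes in wt(ura3) against wt(met), 2147 in wt(ura3) against wt and 188 in wt(met) against wt. None of the 280 called genes examined turned its direction under these alternatives. The median of the hexose transporter list was -1.39 when only members averaging 4 or more on the log2 CPM scale were kept, MFA1 was -0.60 and STE6 0.096 with the coding length offset, and STE2, not called, ran from -0.20 to 0.063 with 1 library left out (0.034 without wt(ura3) replicate 3). Of other genes not called, leaving out 1 library gave -0.92 to 0.53 for HSP26, -0.28 to 0.16 for LEU1, -0.30 to 0.54 for SUC2 and -0.11 to 0.11 for MET4, and the coding length offset gave -0.037 for HSP26 and 0.19 for LEU1. With the replicate block HSP26 was at -0.19 and HXT2 (YMR011W) was called lower (-4.19, adjusted p = 0.003). With the coding length offset, 16 of 44 list medians moved by more than the spread between wt(ura3) libraries, whose causes were not tested. In simulated data of the same depth, 92% of genes changed 2.5-fold were called. Of genes changed 1.5-fold, 4% were called, but these lay below the fold minimum, so the rule itself left most of them out. The simulation changed 50 genes at each fold and none of low count, so it gives no rate for weakly expressed genes. It also gave both groups the same spread per gene and left most genes unchanged. The unequal spread and the broad change of the real libraries were not simulated.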
